A study of Mus musculus with 18 samples.

Results

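Peptide hormones are made as longer precursors that are cut, trimmed and modified on their way through the Golgi apparatus and into dense core granules. The 7 genes described here encode enzymes of that chain and membrane proteins of the granule: Pcsk1, Furin, Cpe, Cpd, Pam, Ptprn and Ptprn2. They were chosen by symbol, as a set of prohormone processing enzymes and granule phosphatases, and make up 7 of the 19938 genes measured. Each had 1 probe set on the array whose platform annotation gave that symbol alone.

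Crypt cells of the mouse small intestine were sorted by how brightly they carried a reporter of Flattop (Fltp), known from planar cell polarity, and their RNA was read on 1-colour microarrays. The groups used here are the reporter-high gate, the reporter-low gate and the reporter-negative gate, called high, low and negative cells. All cells came from C57Bl6/J mice aged 4 months that carried 1 reporter allele (FltpZV/+), so the negative cells carry the reporter too and were separated only by their lack of signal. There were 2 arrays for each gate, each of RNA pooled from 2 animals, so a value averages over animals. Whether pools with the same number came from the same animals is not stated, and p-values measure only the spread between the arrays.

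In enteroendocrine cells, the hormone-producing cells of the gut epithelium, the convertase encoded by Pcsk1 cuts precursors after pairs of basic residues, Cpe removes the basic residues left at the cut end, and Pam amidates the new carboxyl terminus where a glycine is exposed. Furin and Cpd do the related cutting and trimming in the trans-Golgi network of most cell types, for growth factors, receptors and adhesion proteins. Ptprn (also called IA-2) and Ptprn2 (also called phogrin or IA-2 beta) are transmembrane proteins of dense core granules in the receptor tyrosine phosphatase family, known as autoantigens of type 1 diabetes.

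The values are RMA values, which are background-corrected, normalized and summarised probe intensities on the log2 scale, so a difference of 1 is a 2-fold difference. They do not allow one gene's level to be set against another's. Array medians lay between 4.54 and 4.74. Correlations across genes between the arrays of a gate were 0.946 for high, 0.975 for low and 0.981 for negative cells, so the high pair was the least alike. A background level of 4.23 was taken from 1203 olfactory, vomeronasal and trace amine receptor genes, as the 95th percentile of their mean values, and 69.4% of genes lay above it on high replicate 2, against 61.3% to 65.4% on the other arrays. Where no array of the dimmer gate was above that level, a change is given as at least the difference from it. Such a bound sets a mean against the level and leaves out the spread between arrays. Among epithelial markers, Vil1, a structural protein of the intestinal epithelium, had 9.98 and 9.64 in high, 9.89 and 9.79 in low and 10.74 and 10.59 in negative cells, and 9 of 9 measured Paneth cell markers were above background on every array.

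Promoter sequences are shown for 4 members with an entry in the RefSeq promoter table (build GRCm38.p6), because 5 members moved together between low and the other gates. Each is the 250 bases before the listed start, 5′ to 3′ on the gene's strand, at chr13:75089607-75089856 on the plus strand for Pcsk1, chr1:75264209-75264458 on the minus strand for Ptprn, chr1:98095647-98095896 on the minus strand for Pam and chr12:116485470-116485719 on the plus strand for Ptprn2. In the first pair, capitals mark TGACG, the core of the cyclic AMP response element, on either strand (CGTCA is the same letters read on the other strand).
Pcsk1: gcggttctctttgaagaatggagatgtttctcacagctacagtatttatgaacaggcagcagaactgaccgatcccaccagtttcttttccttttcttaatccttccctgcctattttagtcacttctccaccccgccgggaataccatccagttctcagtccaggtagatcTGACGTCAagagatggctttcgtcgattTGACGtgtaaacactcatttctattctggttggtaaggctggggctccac
Ptprn: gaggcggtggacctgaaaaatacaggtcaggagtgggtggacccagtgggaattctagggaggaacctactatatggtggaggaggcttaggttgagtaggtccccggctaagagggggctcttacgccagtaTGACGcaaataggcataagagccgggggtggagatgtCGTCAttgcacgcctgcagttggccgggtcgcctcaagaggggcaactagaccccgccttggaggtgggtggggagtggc
In the second pair, which held no TGACG, capitals mark GGGCGG, the GC box core, on either strand (CCGCCC on the other).
Pam: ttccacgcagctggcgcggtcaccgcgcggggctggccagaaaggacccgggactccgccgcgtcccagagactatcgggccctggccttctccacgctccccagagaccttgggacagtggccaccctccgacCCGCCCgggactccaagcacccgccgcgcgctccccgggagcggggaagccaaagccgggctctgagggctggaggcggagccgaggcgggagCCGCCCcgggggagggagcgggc
Ptprn2: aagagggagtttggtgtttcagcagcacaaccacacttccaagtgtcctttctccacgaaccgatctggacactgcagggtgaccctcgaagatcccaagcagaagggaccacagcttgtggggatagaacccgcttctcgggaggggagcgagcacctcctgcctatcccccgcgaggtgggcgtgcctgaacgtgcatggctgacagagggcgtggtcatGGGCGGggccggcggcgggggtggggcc

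The windows were searched on both strands for 8 motifs, which were TGACG and GGGCGG, the TATAAA core, the E-boxes CAGATG and then CAGCTG, and the short strings CAGCACC, then GTTGCC, then AGATAA. The Pcsk1 window held TGACG 3 times, starting 78 and 50 bases before the start on the gene's strand and 75 bases before it on the other strand. The copies that begin at 78 and 75 overlap and together read TGACGTCA, the full palindrome of the element. The Ptprn window held it 2 times, 117 bases before the start on the gene's strand and 80 bases before it on the other. Of 32851 promoter windows of the same length, 17.8% held TGACG at least once on either strand, 3.9% at least 2 times and 0.688% at least 3 times, overlapping copies counted. A second listed start of Ptprn held none, so the match depends on the start taken. The printed Pcsk1 and Ptprn windows lie wholly within the gene spans given below, and those of Pam and Ptprn2 partly. The listed starts are thus not the outermost ones of these genes. GGGCGG stood in 32.7% of all windows, and in those of Pam, Ptprn2 and Cpd, at a second start of Furin and at the second start of Ptprn. The first Furin window held TGACG once on the other strand, 126 bases before the start, and a TATAAA box core (12.4% of all windows) 23 bases before it. The Ptprn window also held GTTGCC (10.4% of all windows) on the other strand, 39 bases before the start, and the Pam window CAGCTG (4271 of the 32851 windows) 243 bases before it. No window of a member held CAGATG (14.4%), CAGCACC (5.73%) or AGATAA (9.99%). These matches describe the letters of these windows only. Cpe had no entry and is named only.

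Across the 3 gates, 5 members had their highest level in low cells, Cpd had its highest in high cells and Furin its lowest there. In low against negative cells 5 of the 7 members rose and 0 fell, where 3.42% of all genes rose and 2.54% fell (limma, adjusted p under 0.05 over all 19938 genes). In high against negative cells Ptprn2 and Cpd rose and 0 fell, where 1.36% of all genes rose and 3.35% fell. In high against low cells 0 rose and 5 fell, where 1.01% of all genes rose and 3.89% fell. The median log2 change of the 7 members was 3.83, 0.82 and -1.88 in these comparisons, where that of all genes was -0.03, 0.10 and 0.13. Because the comparisons share arrays, their counts are not independent of each other. In sorted bulk RNA, fewer cells of a type and less RNA per cell cannot be told apart.

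**Figure D1:**
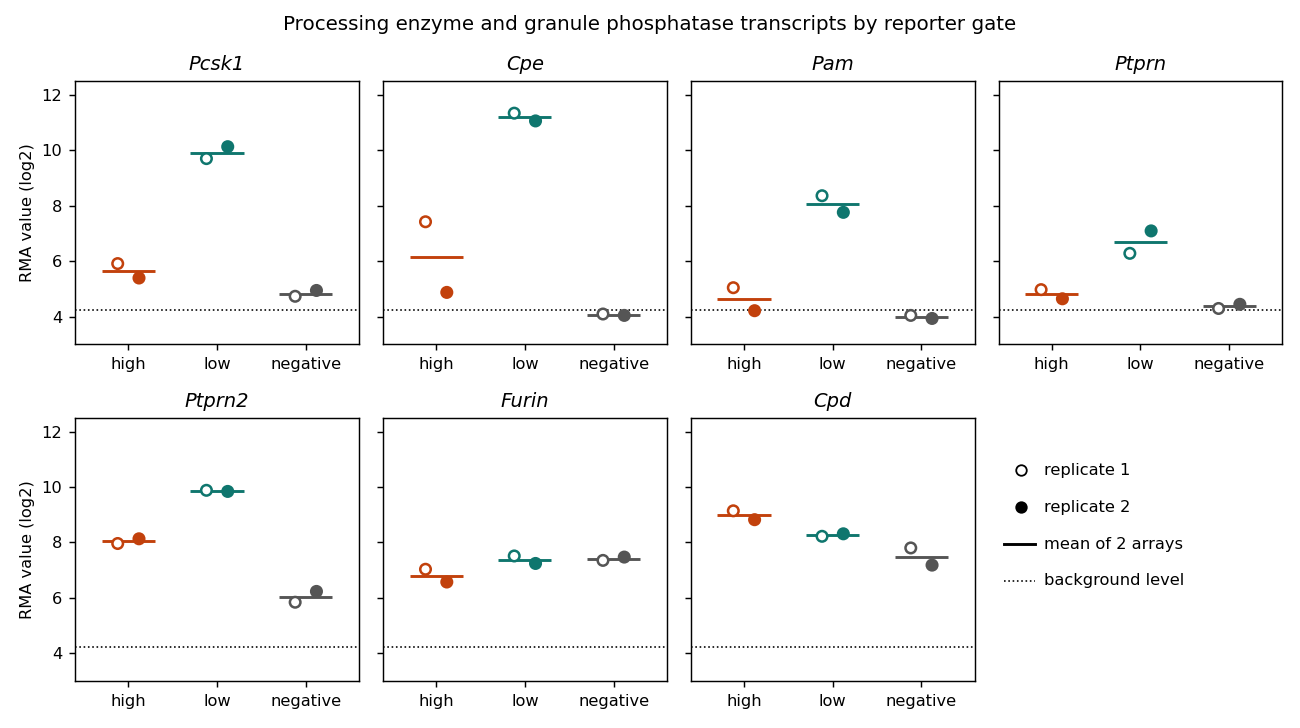
Log2 RMA value (vertical axis) of each of the 7 genes on the 6 arrays, by reporter gate (high, low, negative). Open circles are replicate 1, filled circles replicate 2, horizontal bars the mean of 2 arrays and the dotted line the background level of 4.23. Pcsk1, Cpe, Pam, Ptprn and Ptprn2 are highest on both low arrays, Cpd on both high arrays, and the Furin points of low and negative cells overlap.

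Pcsk1, the convertase of the regulated secretory pathway (chromosome 13, 75089420 to 75134861 in GRCm38.p6), had RMA values of 5.91 and 5.39 in high cells, 9.70 and 10.13 in low cells and 4.73 and 4.94 in negative cells. Both low arrays stood far above the rest, the high arrays lay between, and no gates overlapped. Pcsk1 rose 33.9-fold in low against negative cells (log2 change 5.08 ± 0.26, SE; limma adjusted p = 0.000387) and fell in high against low cells, by 4.26 ± 0.26 on the log2 scale (limma adjusted p = 0.000633). High minus negative was 0.82 ± 0.26 and was not called (95% interval 0.21 to 1.43; limma adjusted p = 0.127).

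Furin, the convertase of the constitutive pathway (chromosome 7, 80389194 to 80405441), had values of 7.03 and 6.57 in high, 7.51 and 7.24 in low and 7.35 and 7.47 in negative cells. Both high arrays were the lowest, and the low and negative arrays overlapped. No comparison of Furin was called: low minus negative was -0.04 ± 0.23 (SE; 95% interval -0.58 to 0.50; limma adjusted p = 0.972), and high minus negative was -0.61 ± 0.23 (limma adjusted p = 0.18). The sign of low minus negative turned under other settings, and with quantile normalization high minus negative was -0.31.

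In the rest of the convertase family the calls fell otherwise. Of 7 measured family genes, Pcsk1 rose and Pcsk5 fell in low against negative cells, 0 were called in high against negative cells, and in high against low cells Pcsk6 rose and Pcsk1 fell. Pcsk5, a convertase of both pathways, had 5.51 and 6.14 in high, 5.58 and 4.74 in low and 7.55 and 7.22 in negative cells, and its low minus negative change was -2.22 ± 0.34 (limma adjusted p = 0.0156). Both negative arrays were above all others for it. The call of Pcsk5 was lost without low replicate 2, negative replicate 1 or negative replicate 2, and that of Pcsk6 (high minus low 0.97 ± 0.20, limma adjusted p = 0.0455) without any 1 of the 6 arrays. Pcsk4, Pcsk7 and Mbtps1 were not called. Pcsk2, the other granule convertase, was not analysed here.

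In a list of 4 convertase partners and protease inhibitors, Scg5 and Pcsk1n rose in low against negative cells. Scg5 encodes 7B2, the chaperone of the Pcsk2 convertase, and had 6.44 and 5.73 in high, 8.41 and 8.71 in low and 4.75 and 5.20 in negative cells. Its arrays were ordered low, high, negative without overlap, with low minus negative 3.59 ± 0.30 (limma adjusted p = 0.00195) and high minus low -2.47 ± 0.30 (limma adjusted p = 0.00668). Pcsk1n encodes proSAAS, an inhibitor of the Pcsk1 enzyme, and had 5.31 and 5.22 in high, 7.65 and 6.39 in low and 5.07 and 5.36 in negative cells. Its low minus negative change of 1.81 ± 0.39 passed narrowly (limma adjusted p = 0.045), and the call was lost without low replicate 1, without any 1 of the high or negative arrays, and with median-centred or quantile-normalized arrays. Cst3 and Serpini1 were not called in any comparison.

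Cpe, the carboxypeptidase of the granule (chromosome 8, 64592542 to 64693109), had values of 7.42 and 4.87 in high cells, 11.34 and 11.06 in low cells and 4.09 and 4.04 in negative cells. Both negative arrays were below background, both low arrays were the highest, and the high arrays lay far apart from each other. Cpe rose at least 125-fold in low against negative cells, a log2 change of at least 6.97 (limma adjusted p = 0.00377). Cpe fell in high against low cells by 5.05 ± 0.72 on the log2 scale (SE; limma adjusted p = 0.0122). That call was lost without low replicate 1 or low replicate 2.

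For high against negative cells, the high mean of Cpe lay 1.92 above the background level on the log2 scale, with both negative arrays below it. The fitted difference, 2.08 ± 0.72, was not called (limma adjusted p = 0.155, 95% interval 0.38 to 3.78). It rested on the unlike high arrays: without high replicate 1 the fitted difference was 0.80 and not called (limma adjusted p = 0.0718), and without high replicate 2 it was 3.36 and called (limma adjusted p = 0.0103). High replicate 1 was the higher of the pair for 6 of the 7 members, all but Ptprn2, and for 8 of 9 Paneth, 8 of 9 enterocyte and 6 of 9 enteroendocrine markers, but for 1 of 7 stem cell and 2 of 7 tuft cell markers.

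Cpd, a carboxypeptidase of the trans-Golgi network (chromosome 11, 76777208 to 76847008), had values of 9.14 and 8.82 in high, 8.22 and 8.31 in low and 7.80 and 7.18 in negative cells. Its gates ran in the order of reporter brightness without overlap. Cpd rose 2.81-fold in high against negative cells (log2 change 1.49 ± 0.26, SE; limma adjusted p = 0.028), while low minus negative was 0.77 ± 0.26 (limma adjusted p = 0.154) and high minus low was 0.72 ± 0.26 (limma adjusted p = 0.169). The call in high cells was lost when any 1 of the 6 arrays was left out, with adjusted p between 0.05 and 0.167, when only these gates were fitted (0.0563) and with array weights (0.0518). Of the 8 measured genes of the carboxypeptidase E family, Cpe in low and Cpd in high cells were the only ones that rose against negative cells, and Cpe was the only one that fell in high against low cells. Cpn1, known in humans as a carboxypeptidase of plasma, had 3.45 and 3.67 in high, 6.02 and 4.61 in low and 3.52 and 3.44 in negative cells, and was not called (low minus negative, limma adjusted p = 0.0547).

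Pam, the amidating enzyme (chromosome 1, 97821091 to 98095853), had values of 5.04 and 4.21 in high, 8.36 and 7.76 in low and 4.04 and 3.93 in negative cells. Only high replicate 1 and the low arrays were above background, and the gates did not overlap. Pam rose at least 14.2-fold in low against negative cells, a log2 change of at least 3.83. The fitted change had a 95% interval of 3.29 to 4.85 (limma adjusted p = 0.00184). In high against low cells Pam fell by 3.43 ± 0.33 (SE, limma adjusted p = 0.00277). The high mean lay 0.39 above the background level, with high replicate 2 and both negative arrays below it. High minus negative was 0.64 ± 0.33 as fitted and was not called (limma adjusted p = 0.303, 95% interval -0.14 to 1.42).

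The list of peptide modification enzymes and their cofactors held 10 measured genes, of which Pam, Tpst1 and Tpst2 rose in low against negative cells, 0 were called in high against negative cells, and Pam and Tpst1 fell in high against low cells. Tpst1 and Tpst2 encode the tyrosylprotein sulfotransferases, which sulfate peptides such as gastrin and cholecystokinin. Tpst1 had 4.92 and 4.52 in high, 7.57 and 6.65 in low and 3.98 and 3.96 in negative cells, the last both below background. It rose by at least 2.88 on the log2 scale in low against negative cells (limma adjusted p = 0.00404) and fell by 2.39 ± 0.32 in high against low cells (limma adjusted p = 0.01). Tpst2 differed less, with low minus negative 1.11 ± 0.24 (limma adjusted p = 0.0482), and its call was lost without any 1 of the low or negative arrays and with median-centred or quantile-normalized arrays.

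Ptprn (chromosome 1, 75247035 to 75264497) had values of 4.97 and 4.64 in high, 6.28 and 7.09 in low and 4.29 and 4.44 in negative cells. Both low arrays were the highest, although the values in negative cells were only just above background. Ptprn rose 4.99-fold in low against negative cells (log2 change 2.32 ± 0.29, SE; limma adjusted p = 0.00765), a call lost once either negative array was left out (adjusted p = 0.0856 without replicate 1 and 0.0679 without replicate 2). It fell by 1.88 ± 0.29 in high against low cells (limma adjusted p = 0.0176), a call lost without low replicate 2 (adjusted p = 0.0648), without high replicate 2 (0.0656), without either negative array (0.0524 each) and when only these gates were fitted (0.0524). High minus negative was 0.44 ± 0.29 (limma adjusted p = 0.412).

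Ptprn2 (chromosome 12, 116485695 to 117278167) had values of 7.96 and 8.13 in high cells, 9.88 and 9.84 in low cells and 5.84 and 6.23 in negative cells. Its gates formed 3 separate steps, low above high above negative, and it was called in all 3 comparisons. It rose 14.2-fold in low against negative cells (log2 change 3.83 ± 0.21, SE; limma adjusted p = 0.000455) and 4.02-fold in high against negative cells (2.01 ± 0.21; limma adjusted p = 0.00976), and it fell by 1.82 ± 0.21 in high against low cells (limma adjusted p = 0.00542). The call in high against negative cells did not hold once either negative array was left out, as for nearly all genes called there. The change was then 1.82 without replicate 1 and 2.20 without replicate 2.

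The wider class of receptor tyrosine phosphatases was read alongside. Of 18 measured genes on the list of the class, Ptprn and Ptprn2 rose in low against negative cells and the 16 others were not called in any of the 3 comparisons. Ptprf, the next by p, had 7.30 and 6.22 in high, 8.30 and 7.95 in low and 8.29 and 8.25 in negative cells. Both high arrays were the lowest, with high minus negative -1.51 ± 0.35 (limma adjusted p = 0.063). Ptprc, which encodes CD45 of white blood cells and stood in the lymphocyte list instead, is also of the class, and it had 5.11 and 5.72 in high, 9.46 and 9.37 in low and 7.69 and 7.61 in negative cells. It rose in low against negative cells (1.77 ± 0.24, limma adjusted p = 0.00959), and it fell in high against negative cells (-2.23 ± 0.24, limma adjusted p = 0.0111) and in high against low cells (-4.00 ± 0.24, limma adjusted p = 0.000633). Both calls of Ptprc against negative cells were lost without either negative array, and that in low cells without either low array too.

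**Figure D2:**
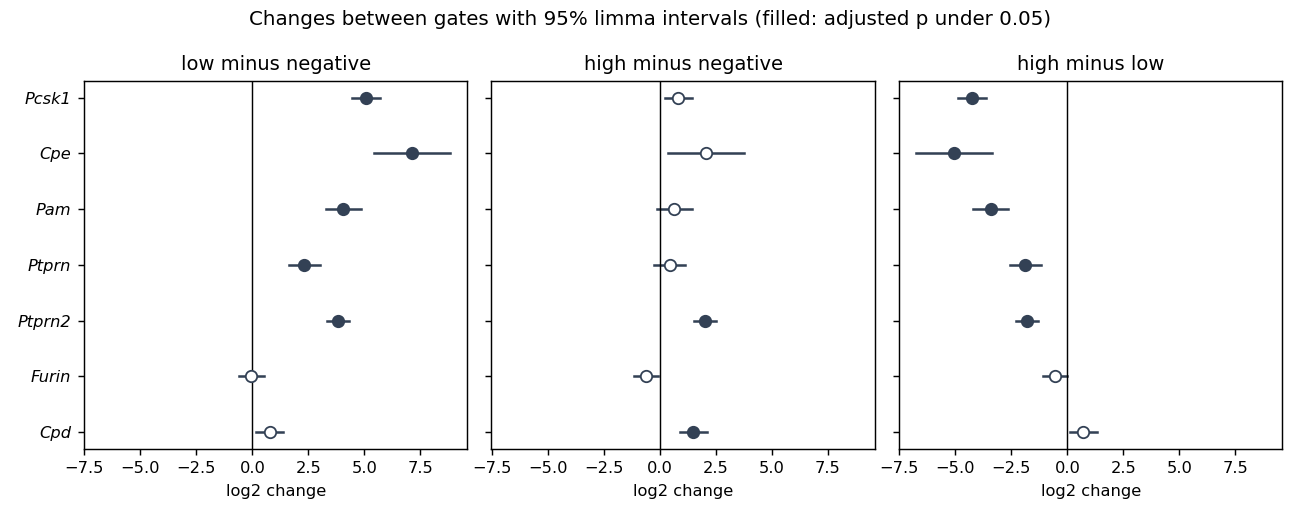
Log2 change of the 7 genes (horizontal axis) in low minus negative, high minus negative and high minus low cells, with 95% limma intervals as bars. Filled points have an adjusted p under 0.05: 5 genes in low minus negative, Ptprn2 and Cpd in high minus negative, and 5 genes below 0 in high minus low. For Cpe and Pam the plotted low minus negative changes (7.13 and 4.07) are the fitted values, with negative cells below background.

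The precursors on which these enzymes act were described beside them. Of 18 measured genes of gut prohormone precursors, 11 rose in low against negative cells and 0 fell, 4 rose in high against negative cells, and 9 fell in high against low cells. The median log2 change of the list was 5.06, 0.50 and -2.09 in these comparisons. Nts (neurotensin) had 3.94 and 4.32 in high, 11.47 and 10.96 in low and 3.50 and 4.01 in negative cells. Its rise in low against negative cells was at least 6.98 on the log2 scale (limma adjusted p = 0.000198). Gcg, the precursor of glucagon-like peptides, had 6.59 and 7.56 in high, 12.65 and 12.70 in low and 6.15 and 6.43 in negative cells. For both genes the low arrays were the highest by a wide margin.

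High cells also held precursor transcripts. Gip, Sst, Gast and Ghrl rose in high against negative cells, and each call was lost without either negative array. Sst (somatostatin) had 8.56 and 8.65 in high, 12.70 and 11.74 in low and 6.74 and 6.26 in negative cells, 3 separate steps as for Ptprn2, with high minus negative 2.11 (limma adjusted p = 0.0241). Gip rose in high against negative cells by 1.75 ± 0.28 (limma adjusted p = 0.0237), and the calls of Gip and Sst were lost without high replicate 2 too. Gast (gastrin) and Ghrl (ghrelin), which stand outside the naming rule and were picked with their values in view, had their high minus negative changes at 6.95 ± 0.91 and 4.08 ± 0.63. In high cells Gast had 12.76 and 11.01, against 11.89 and 9.11 in low and 4.99 and 4.88 in negative cells, so its high and low arrays overlapped.

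Of 20 genes of dense core granule biogenesis, 5 rose in low against negative cells, 2 rose in high against negative cells and 3 fell in high against low cells, where the list's median change was 0.20, 0.04 and -0.21. Scg3, a granin-binding protein, had 5.45 and 4.44 in high, 9.23 and 8.78 in low and 3.79 and 3.72 in negative cells. Its rise in low against negative cells was at least 4.77 on the log2 scale (limma adjusted p = 0.000739). Cadps, which primes granules for release, had 3.75 and 3.91 in high, 7.51 and 7.61 in low and 3.78 and 3.93 in negative cells, so that it was above background in low cells alone, and rose by at least 3.33 in low against negative cells (limma adjusted p = 0.000387). Snap25, a SNARE of granule fusion, rose by at least 3.40 in low against negative cells (limma adjusted p = 0.00109). These 3 genes fell in high against low cells.

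Ica1 and Hid1 behaved otherwise. Ica1, which encodes the granule-associated islet cell autoantigen 1, had 6.76 and 6.53 in high, 6.24 and 6.96 in low and 4.47 and 4.42 in negative cells. The high and low arrays overlapped and both stood above the negative ones, with high minus negative 2.20 ± 0.27 (limma adjusted p = 0.0142) and low minus negative 2.16 ± 0.27 (limma adjusted p = 0.00703). Hid1, a Golgi protein of granule formation that was picked with its values in view, had 9.28 and 8.74 in high, 8.42 and 8.52 in low and 7.19 and 6.59 in negative cells, with high minus negative 2.12 ± 0.28 (limma adjusted p = 0.0167) and low minus negative 1.58 ± 0.28 (limma adjusted p = 0.0236). Calls of both genes against negative cells were lost without either negative array, and that of Hid1 in low cells without either low array too.

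The granule lumen is acidified by a proton pump, which activates the convertases. Of 19 measured genes of granule acidification, 2 rose in low against negative cells, 0 were called in high against negative cells and 4 fell in high against low cells. Of all genes, 3.42% rose in low against negative cells and 3.89% fell in high against low cells. The list's median log2 change was 0.53, -0.21 and -0.68 in the 3 comparisons. Clcn5, a chloride-proton exchanger, had 5.34 and 5.46 in high, 7.47 and 7.94 in low and 6.11 and 6.64 in negative cells, and its high minus low change was -2.30 ± 0.26 (limma adjusted p = 0.00526). Atp6v1b2, a pump subunit, had 7.24 and 7.97 in high, 9.15 and 9.53 in low and 7.10 and 7.31 in negative cells, with low minus negative 2.14 ± 0.28 (limma adjusted p = 0.00909). Low arrays were the highest for both. Against negative cells, both genes lost their calls without low replicate 2 or either negative array, and Clcn5 without low replicate 1 as well. In high against low cells Atp6v1b2 lost its call without any 1 of the low or negative arrays, Atp6v0a1 (-1.14 ± 0.22, limma adjusted p = 0.0379) lost it without any 1 array other than high replicate 1, and Atp6v1c1 (-1.05 ± 0.22, limma adjusted p = 0.0458) without any 1 array.

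A list of 17 epithelial genes, taken up as possible substrates of Furin, was read as well. Whether Furin cuts each of them was not tested. In low against negative cells Itgav rose and St14 fell, where 3.42% of all genes rose and 2.54% fell. In high against negative cells Bmp7 rose and Adam10 and St14 fell, where 1.36% of all genes rose and 3.35% fell. In high against low cells Bmp7 rose and Itgav fell, where 1.01% of all genes rose and 3.89% fell. Bmp7, a growth factor cut from a proprotein, had 7.79 and 8.29 in high, 6.15 and 6.37 in low and 5.84 and 6.08 in negative cells, with both high arrays the highest. Its high minus negative change was 2.08 ± 0.23 (limma adjusted p = 0.0119), a call lost without either negative array, and in high against low cells its call was lost without low replicate 1. Itgav, an integrin subunit, had 5.68 and 5.81 in high, 7.38 and 7.26 in low and 6.20 and 6.10 in negative cells, with high minus low -1.57 ± 0.18 (limma adjusted p = 0.00567) and low minus negative 1.17 ± 0.18 (limma adjusted p = 0.0156), the second lost without any 1 of the low or negative arrays. St14, the protease matriptase, was lower in both reporter-positive gates: high minus negative was -1.26 ± 0.19 (limma adjusted p = 0.0219) and low minus negative -1.06 ± 0.19 (limma adjusted p = 0.0264). Both calls of St14 were lost without either negative array, and its call in low cells without either low array too. The call of Adam10 in high against negative cells (-1.03 ± 0.19, limma adjusted p = 0.0332) was lost without any 1 array other than high replicate 1.

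**Figure D3:**
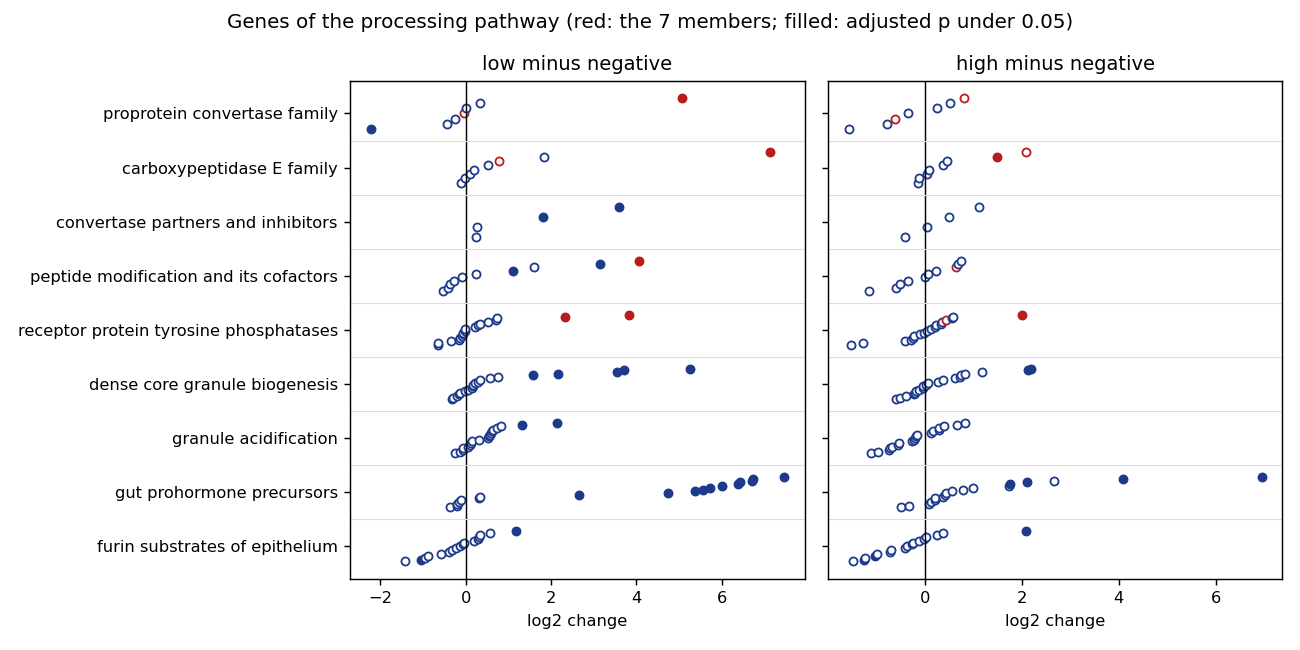
Log2 change of each measured gene (points) of the 9 pathway lists, in low minus negative (left) and high minus negative cells (right). Red points are the 7 members and filled points have an adjusted p under 0.05. In low cells 11 of 18 prohormone precursors are filled at the right, while most genes of the other lists lie near 0.

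For each member, the 3 genes with the most similar course were named, among genes whose mean over the 6 arrays was above background. Likeness was the root mean square difference of mean-centred log2 values, as a description over 6 arrays in 3 gates. For Cpe these were Pyy (0.39), a hormone precursor, Tph1 (0.55), which makes serotonin, and Chga (0.60), a granin. For Pcsk1 they were Peg3 (0.28), Disp2 (0.29) and Scgn (0.33), and for Pam Fabp5 (0.28), Vwa5b2 (0.28) and Etv1 (0.29). Ptprn2 was nearest to Gnao1 (0.32), Nkx2-2 (0.40) and Scg5 (0.47), and Ptprn to Glis3 (0.14), Irs1 (0.15) and Otulinl (0.16). Among these neighbours, Tph1, Peg3, Disp2, Scgn, Etv1 and Irs1 lay below background on both negative arrays. Cpd was nearest to Scamp1 (0.10), Spcs3 (0.13), a signal peptidase subunit, and Lamp2 (0.15), a lysosomal membrane protein. Furin, which varied little, was nearest to Tdp1, Vps13a and Pklr (0.06 each).

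Markers of several cell types moved with the gates. The mean log2 level of 9 enteroendocrine markers was 5.69 and 5.34 in high, 9.79 and 9.68 in low and 4.67 and 4.61 in negative cells, and 9 of 9 rose in low against negative cells, 0 in high against negative cells, and 9 fell in high against low cells. Paneth markers averaged 12.53 and 12.23 in high, 11.69 and 11.90 in low and 8.91 and 8.35 in negative cells, with 9 of 9 higher in high and in low than in negative cells. Cpd had the same order of gates as the mean of the Paneth markers. In high against low cells, however, 1 of 9 Paneth markers rose (Habp2) and 0 fell, and Cpd was not called. Lymphocyte markers averaged 6.49 and 6.43 in high, 9.86 and 9.89 in low and 8.33 and 8.54 in negative cells: of 9, 7 rose in low against negative, 8 fell in high against negative and 8 fell in high against low cells. The part of these cell types in the levels of the members was not tested.

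Neurons and glia, which also hold dense core granules or lie near crypts, were checked too. The mean of 9 enteric neuron markers was 4.11 and 4.21 in high, 5.06 and 5.18 in low and 3.88 and 3.86 in negative cells. Ret, Nefm and Snap25, the last also in the granule list, rose in low against negative cells and fell in high against low cells, and Ret rose in high against negative cells, while Elavl4 and Stmn2 were below background on all 6 arrays. Of 4 enteric glia markers 0 were called in any comparison, with means between 3.75 and 4.32 on single arrays. Of 10 mast and myeloid markers, 4 rose (Tyrobp, Fcer1g, Lyz2 and Kit) and 2 fell (Mcpt1 and Mcpt2) in low against negative cells. In high against negative cells 1 rose (Kit) and 4 fell (Tyrobp, Fcer1g, Mcpt1 and Mcpt2). In high against low cells 0 rose and 2 fell (Tyrobp and Fcer1g). Csf1r, Adgre1, Itgam and Cd68 were not called in any comparison.

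**Figure D4:**
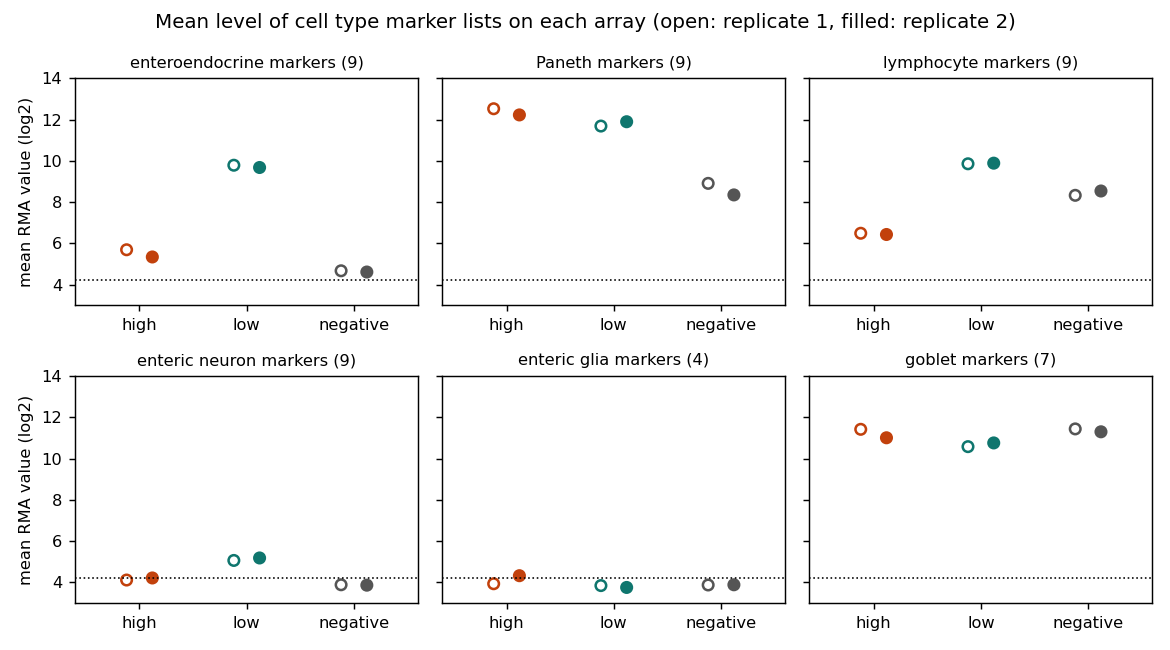
Mean log2 RMA value (vertical axis) of the measured markers of 6 cell types on each array, by reporter gate (high, low, negative), with the number of markers in each title. Open circles are replicate 1, filled circles replicate 2 and the dotted line is the background level of 4.23. Enteroendocrine markers stand highest on the low arrays (9.79 and 9.68), and Paneth markers on the high arrays (12.53 and 12.23).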

How the data were processed

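Values were deposited by the authors as log2 expression per probe set, by RMA in Affymetrix Expression Console (version 1.3.0.187, per the submitters' processing notes). RNA was column-extracted with DNase treatment and amplified with a whole-transcript kit, per the labels' protocols. Its further settings were not known here. RMA compresses changes of dim probe sets, and low values cannot be told from background. The 12 columns of lineage-traced samples, among 18, were empty and are not analysed here.

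Of 35556 probe sets, 21789 had 1 platform symbol, 1621 several and 12146 none listed; 21698 matched the GRCm38.p6 gene table by gene ID and 91 kept the platform symbol. For the 999 genes with more than 1, the brightest by mean was kept. On average 12880 of 19938 genes lay above background. Genes were tested with limma 3.58.1 (R 4.3.3; lmFit, eBayes), 3 gate means over 6 arrays, two-sided, with Benjamini-Hochberg adjustment over all genes and a threshold of 0.05; Python 3.11.15 was used for tables. The script was tested on simulated data. Members and lists were chosen with earlier results of these data known. Named genes were the members, up to 4 genes of each list with the smallest p in any comparison, other genes of the members' families, and 3 neighbours per member, without predicted genes. Alternatives covered the spread model, arrays fitted, dim genes, probe sets, scaling, array weights, a replicate block and leaving out single arrays.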

Additional observations from a re-analysis of the deposited data

How the results depend on the processing

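With 2 arrays a gate and 3 residual degrees of freedom, adjusted p-values near the threshold moved across it easily, and values near 4.23 carry little information. Of 315 re-computed member changes, 292 kept direction and side of the threshold, 19 lost the call, 1 gained it (Cpe in high against negative cells without high replicate 2) and 3 turned sign. All 3 were Furin in low against negative cells, uncalled throughout: 0.01 with quantile normalization, 0.02 without negative replicate 2 and 0.10 without low replicate 2, within a range from -0.17 to 0.10 when arrays were left out. Where calls were lost otherwise, the cause was not tested. The re-computed changes were not independent, and some could not differ. Each member had 1 probe set, so averaging probe sets left its log2 changes as they were. Several settings altered only the spread or the adjustment, so direction could not turn. Leaving out an array of the gate not compared repeated the fit of only the gates compared. The tally is therefore no measure of stability.

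With array weights, genes called numbered 2150 (low against negative), 620 (high against negative) and 607 (high against low), where the unweighted fit called 1188, 939 and 978. Fitting only the gates compared gave 561 (high against negative) and 499 (high against low). Quantile normalization gave 621 in high against negative cells, 324 higher and 297 lower instead of 272 and 667, and in high against low cells 326 higher and 616 lower instead of 202 and 776. In high against negative cells 1 member was called with array weights and 1 with only these gates fitted. Leaving out 1 array gave 187 to 1761 genes (low against negative), 13 to 1919 (high against negative) and 381 to 1739 (high against low), and 4 to 5, 0 to 2 and 3 to 5 members. The lowest gene counts in both comparisons with negative cells came without a negative array. Losing a call there was thus common to most called genes and not particular to those named. Without negative replicate 1 and replicate 2, high minus negative was 1.82 and 2.20 for Ptprn2, and 1.80 and 1.18 for Cpd. Of 25, 9 and 21 called pathway genes outside the members, 13, 0 and 14 were called under every alternative run.

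Deviations of arrays with the same replicate number correlated at 0.103, 0.102 and 0.079 (low and negative, high and negative, low and high), over only 2 numbers, which were not taken as pairs. With the replicate block 1298, 1065 and 965 genes and 5, 2 and 5 members were called.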
